A study of Mus musculus with 3 samples.

Results

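The insulin receptor Insr, the insulin receptor substrates Irs1 and Irs2, the regulatory PI3-kinase subunit Pik3r1, the kinase Akt2, the transcription factor Foxo1, the receptor-binding adaptor Grb14 and the IGF-1 receptor Igf1r were chosen by name as 8 genes of insulin signalling. All 8 were listed in each of the 3 gene tables, which share 21214 genes. Insulin binds its receptor at the cell surface, the activated receptor tyrosine kinase phosphorylates the IRS adaptors, and these recruit PI3-kinase, whose lipid product brings AKT to the membrane. AKT phosphorylates FoxO factors, which then leave the nucleus, and it promotes GLUT4 translocation and lipogenesis, so that insulin is a main driver of glucose uptake and fat synthesis in brown adipose tissue (BAT). Grb14 binds the active receptor and dampens its signal.

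Single-nucleus RNA sequencing (snRNA-seq) was done on interscapular BAT of adult wild-type (WT) C57Bl6 mice in 3 libraries, with 1 library for each condition, namely no treatment (untreated), sham operation and denervation. Per the study's methods the mice were male and 8 weeks old. Nuclei came from the floating layer of digested BAT that holds brown adipocytes (BAs) and fragmented vasculature. The study's legends give 20 mice each for the untreated and the denervated library. Denervated BAT was taken 3 days after the intercostal nerves of 1 side were cut. A legend of the study also names tamoxifen for the denervated mice, and the header of the denervated table holds a run name with KO in it, while the labels give WT and no tamoxifen for all libraries. The intact side served as contralateral control in the study, and the sources do not say whether the sham library came from such tissue or from sham-operated mice. With 1 library per condition there was no replicate check and no test of a condition, and every interval given is a 95% interval that covers counting error only, between libraries that may also differ in handling. The libraries held 13707 (untreated), 15368 (sham) and 15822 (denervated) barcodes with 9420030 to 14971579 unique molecular identifiers (UMIs) in all, and 10625, 12059 and 9717 nuclei remained after filtering. The sham library stood apart in its mitochondrial share, which was 12.9% of UMIs against 6.71% (untreated) and 2.95% (denervated). Between 251 and 278 barcode sequences occurred in both libraries of a pair.

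Nuclei were grouped by clustering that left out the members and 91 other genes of the pathway, so the grouping did not use the values of those genes. Markers and other genes described below could enter the clustering, and markers named the clusters. The nuclei that expressed the markers of BAs numbered 4671 (untreated), 2726 (sham) and 4922 (denervated), with medians of 1815, 1452.5 and 895.5 UMIs per nucleus. In these BA-like nuclei the thermogenic uncoupling protein Ucp1 was at 345 (untreated), 407 (sham) and 314 (denervated) UMIs per 1000000 UMIs (CPM), and the endothelial marker Pecam1 was at 31.3, 40.3 and 25.6 CPM. Endothelial cell (EC)-like nuclei numbered 5063, 5531 and 2588, and pericyte-like nuclei 591, 1432 and 825. White adipocyte (WA)-like nuclei, named by a list of WA markers that includes the amino acid transporter gene Slc7a10, numbered 102 in the untreated and 999 in the denervated library. In the sham library a cluster of 1638 adipocyte nuclei was led by Slc7a10 among others but also held 48.4% of the brown-only marker level of the BA-like nuclei, so it was left unnamed.

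Insr was the steadiest member in BA-like nuclei. Its level was 362 CPM in the untreated, 348 CPM in the sham and 370 CPM in the denervated library, where 1980, 951 and 1345 nuclei held at least 1 of its UMIs. The log2 ratio of denervated over untreated was 0.03 (-0.05 to 0.11), that of denervated over sham 0.09 (-0.01 to 0.19) and that of sham over untreated -0.06 (-0.15 to 0.04). All 3 intervals held 0, so a difference in Insr between libraries was not detectable at this depth. No bound passed 0.19 in size on the log2 scale, and these bounds cover counting error only.

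Igf1r, which binds IGF-1 and can form hybrid receptors with Insr, was lower in adipocytes than in the other nucleus types. It was at 412 (untreated), 394 (sham) and 335 CPM (denervated) in EC-like nuclei, and at 224, 247 and 305 CPM in pericyte-like nuclei. Its highest level was in the 136 Schwann-like nuclei of the sham library, at 584 CPM (435 to 768). In BA-like nuclei it was at 28.2, 74.7 and 29.99 CPM. The sham library was therefore the high one among BA-like nuclei, by a log2 ratio of 1.41 (1.15 to 1.66) over untreated, while denervated and untreated differed by 0.09 (-0.22 to 0.39).

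The adaptors Irs1 and Irs2, which carry the signal from the receptor to PI3-kinase, differed from each other in pattern. Irs1 was at 202 CPM (untreated), 133 CPM (sham) and 171 CPM (denervated) in BA-like nuclei. In the main clustering the order untreated, denervated, sham was outside counting error at each step. The log2 ratio was -0.24 (-0.36 to -0.12) for denervated over untreated and 0.36 (0.20 to 0.52) for denervated over sham. The place of the sham library depended on which nuclei were counted as BA-like. Sham Irs1 was at 169 CPM at a clustering resolution of 1, and over the alternatives on the CPM scale denervated over sham ranged from -0.10 to 0.37. Irs2 was at 25.9 CPM (220 UMIs) in the untreated, 115 CPM (453 UMIs) in the sham and 40.9 CPM (203 UMIs) in the denervated library. Its sham level thus exceeded the untreated one by a log2 ratio of 2.15 (1.91 to 2.39) and the denervated one by more than 2-fold, with a log2 ratio of -1.49 (-1.74 to -1.25) for denervated over sham. The sham level depended on which nuclei were counted as BA-like and was 203 CPM at a clustering resolution of 1, and over the alternatives on the CPM scale the ratio over untreated ranged from 1.92 to 3.54. Denervated over untreated Irs2 had a log2 ratio of 0.66 (0.38 to 0.94), at levels below 50 CPM in both libraries.

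The windows of 250 bases directly before the start sites of Irs1 and Irs2 are shown because these paralogous adaptors were the only members whose window held one of the motifs searched. Capitals mark the E-box CACGTG. Sequences are from RefSeq (GRCm38.p6, minus strand, written 5′ to 3′), chr1:82291440-82291689 for Irs1 and chr8:11008930-11009179 for Irs2.
Irs1: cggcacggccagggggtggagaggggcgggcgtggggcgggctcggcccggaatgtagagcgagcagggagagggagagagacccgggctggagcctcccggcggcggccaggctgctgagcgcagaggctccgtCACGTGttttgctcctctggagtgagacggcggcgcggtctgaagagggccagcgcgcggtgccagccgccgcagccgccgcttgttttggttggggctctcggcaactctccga
Irs2: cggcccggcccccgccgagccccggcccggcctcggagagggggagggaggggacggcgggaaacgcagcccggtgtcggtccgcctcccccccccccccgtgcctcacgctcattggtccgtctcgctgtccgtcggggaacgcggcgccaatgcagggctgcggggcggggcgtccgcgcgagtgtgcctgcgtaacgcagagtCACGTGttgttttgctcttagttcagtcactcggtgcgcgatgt

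The E-box begins 115 bases before the start of Irs1 and 44 bases before that of Irs2. It was found in 6.02% of 32841 windows of the same length, while the FoxO motif GTAAACA (3.17% of windows) and the cAMP response element TGACGTCA (1.55%) were in no member's window. Both strands were searched, the E-box and the cAMP response element read the same on both, and none of these motifs overlaps another here. Windows were found for 7 members, 11 windows in all, and 9 of the 11 held none of the 3 motifs. The Irs1 and Irs2 windows had 72.4% and 72.8% G and C against a median of 52.4% over all windows. A match of letters describes the sequence and is not evidence of binding.

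Pik3r1, which encodes the p85α subunit that docks PI3-kinase to IRS proteins, was at 1000.2 CPM in untreated, 692 CPM in sham and 1249 CPM in denervated BA-like nuclei. It was higher in the denervated library than in the untreated one by a log2 ratio of 0.32 (0.27 to 0.37) and than in the sham one by 0.85 (0.79 to 0.92). Akt2, the AKT isoform most tied to insulin action on glucose uptake, followed the same order at 543, 453 and 614 CPM. The log2 ratio of denervated over untreated Akt2 was 0.18 (0.11 to 0.24). Foxo1 was at 132, 95.5 and 127 CPM, low in the sham library by a log2 ratio of -0.46 (-0.64 to -0.29) against untreated. Its untreated and denervated levels differed by -0.05 (-0.19 to 0.09). The sham levels depended on which nuclei were counted as BA-like. Over the alternatives on the CPM scale, Foxo1 for sham over untreated ranged from -0.52 to -0.18. Pik3r1 for denervated over sham ranged from 0.54 to 0.85.

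Grb14 differed between all 3 libraries. Its level was 292 CPM (2482 UMIs) in untreated, 89.4 CPM (353 UMIs) in sham and 471 CPM (2342 UMIs) in denervated BA-like nuclei. The log2 ratio was 0.69 (0.61 to 0.77) for denervated over untreated, 2.40 (2.24 to 2.56) for denervated over sham and -1.71 (-1.87 to -1.54) for sham over untreated. The 3 levels were thus all separated beyond counting error, with the denervated library highest and the sham library lowest.

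**Figure D1:**
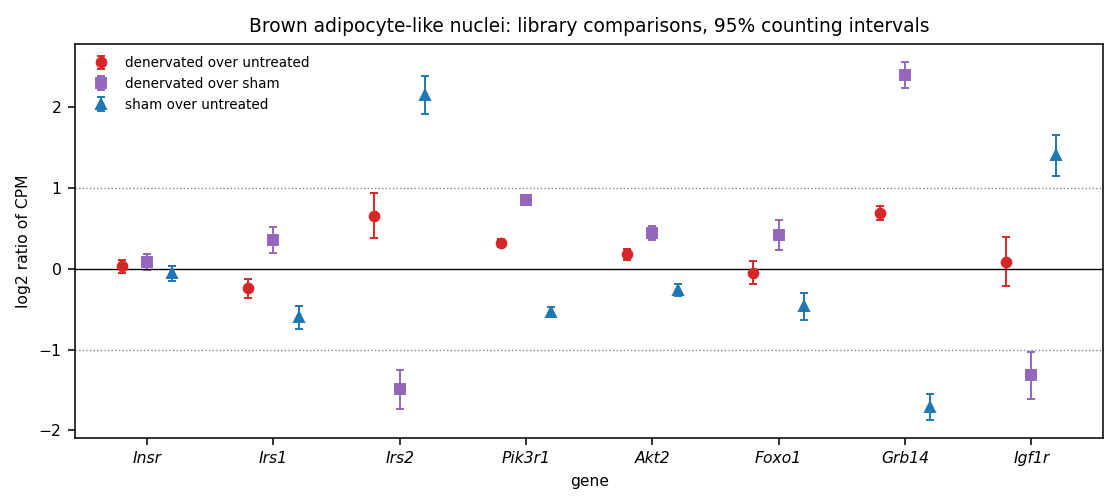
Log2 ratio of CPM in BA-like nuclei for each member in the 3 library comparisons, with 95% counting intervals and dotted lines at 2-fold. The denervated over untreated points all lie between -0.24 and 0.69, whereas Grb14, Irs2 and Igf1r pass 2-fold in both comparisons that use the sham library.

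Counted against all genes, none of the 6 members with at least 50 CPM in denervated or untreated BA-like nuclei differed 2-fold between them, where 1.06% of 4526 genes were higher and 0.464% lower in the denervated library. Of the 8 members tested for denervated over sham, 1 was 2-fold higher (Grb14) and 2 lower (Irs2 and Igf1r), against 8.04% and 7.84% of 4862 genes. For sham over untreated 2 were higher (Irs2 and Igf1r) and 1 lower (Grb14), against 7.83% and 7.09% of 4878 genes. Irs2 and Igf1r reached 50 CPM only in the sham library and were tested through it, so that they could be counted only as higher there. The same one-way limit holds in every comparison below for a member or pathway gene that reached 50 CPM in only 1 of the groups compared. The latter comparisons share the sham library, so their opposite signs are 1 observation and not 2. Of 5017 genes, 5.38% were 2-fold higher and 5.36% were 2-fold lower in sham BA-like nuclei than in both others, and 30 and 12 genes stood out in the same way in the denervated library, with no member among them. Markers other than the members differed in the sham library too, the WA markers in both directions. The c-Kit receptor gene Kit was at 39.3 CPM in sham BA-like nuclei against 316 (untreated) and 198 (denervated). Of the 8 genes of the WA marker list, 6 were listed in each library. In BA-like nuclei these summed to 152 (untreated), 175 (sham) and 189 CPM (denervated). Lep alone was at 126, 28.9 and 123 CPM, and without it the sums were 26.1, 146 and 66.4 CPM. The part of the mitochondrial share and of the WA markers in the levels of Irs2, Igf1r and Grb14 was not tested.

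The share of BA-like nuclei with a UMI was compared at equal depth, where it gave the same order of libraries as the CPM for Irs2 and Grb14, and without thinning, where it put the untreated library above the denervated one. After thinning to 500 UMIs of the 4517, 2584 and 4397 nuclei that were deep enough, Irs2 was seen in 1.35% (1.03 to 1.73) of untreated, 5.998% (5.11 to 6.98) of sham and 1.86% (1.49 to 2.31) of denervated nuclei, by exact binomial intervals. Without thinning the shares were 3.96%, 12.6% and 3.45%, at the unequal depths above. Grb14 was seen in 11.9% (11.001 to 12.9), 3.99% (3.26 to 4.81) and 19.99% (18.8 to 21.2) of thinned nuclei and in 34.0%, 10.4% and 31.5% without thinning. In EC-like nuclei, which have median depths of 665, 514 and 394 UMIs, thinned Grb14 was in 1.10%, 0.34% and 6.47%.

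Irs2 varied within BA-like nuclei as well. In the untreated library a cluster of 603 BA-like nuclei led by the heat-shock genes Hspa1a and Dnajb1 held Irs2 at 81.3 CPM, whereas the main cluster of 4052 nuclei held it at 20.6 CPM. Insr was at 353 and 363 CPM in the same clusters.

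The pathway around the members was counted from a list of 91 genes by role, of which 88 were in all 3 tables. None of the 55 genes with at least 50 CPM in BA-like nuclei of any library was 2-fold above both or below both other libraries in denervated BA-like nuclei. For denervated over untreated, 1 of 48 tested was 2-fold lower and none higher, where 0.464% and 1.06% of all genes were. That gene is Irs3, a rodent adipocyte IRS adaptor, at 104 CPM in untreated, 84.1 in sham and 48.9 in denervated nuclei, with a log2 ratio of -1.09 (-1.30 to -0.88), named after its values were seen. In the sham library 6 of 53 genes were 2-fold higher and 9 lower than in the untreated one, where 7.83% and 7.09% of all genes were. Of the 55 genes, 48 reached 50 CPM in the untreated or denervated library. The rest were tested through the sham library and could be counted only as higher there. Of the genes with the highest CPM in their role, those described are Igf1 among ligands, Ptpn2, a phosphatase of the receptor, among receptor regulators, Pik3c2a among the PI3-kinase genes, Mtor among kinases upstream of AKT, Tbc1d4, the Rab regulator of GLUT4 traffic, Pdk4 among FoxO-held genes and Scd1 among genes raised by insulin. From untreated to denervated the log2 ratio was 0.47 (0.29 to 0.66) for Igf1 and -0.10 (-0.26 to 0.06) for Ptpn2. It was 0.10 (-0.06 to 0.26) for Pik3c2a, -0.01 (-0.10 to 0.08) for Mtor and 0.12 (0.06 to 0.18) for Tbc1d4. These 5 genes thus stayed within 2-fold.

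Genes that insulin raises were low in the sham library. For reference, the sham library was the highest for 2143 and the lowest for 2164 of 5017 genes in BA-like nuclei, and it was 2-fold above both others for 5.38% and below both for 5.36%. Of 9 tested genes that insulin raises, all 9 were lowest in sham BA-like nuclei and 5 were more than 2-fold below both other libraries, namely Acaca, Acly, Fasn, Me1 and Scd1, enzymes of fatty acid synthesis and desaturation and of its citrate and NADPH supply. Their median log2 ratio was -1.48 for sham over untreated and -0.40 for denervated over untreated. Low sham values of these genes were also seen in EC-like and pericyte-like nuclei. For sham over untreated EC-like nuclei 7 of the 9 were 2-fold lower (median -1.41), where 2.38% of genes were. In pericyte-like nuclei 8 of the 9 were (median -1.90), where 3.18% of genes were. The part of carried-over BA RNA in these values was not tested. In BA-like nuclei Scd1 was at 14053 CPM in the untreated, 4077 in the sham and 15622 in the denervated library. Acly was at 4106, 578 and 2409 CPM, so that it was lower in the denervated than in the untreated library, by a log2 ratio of -0.77 (-0.80 to -0.74). Of 12 tested genes that FoxO factors hold up when insulin is low, 8 were highest in sham nuclei and 2 were more than 2-fold above both others. These were Pdk4, an inhibitory kinase of pyruvate dehydrogenase, at 511, 1374 and 474 CPM and Klf15, a metabolic transcription factor, at 5.29, 61.0 and 4.83 CPM, which passed the minimum of 50 CPM only through the sham library. Against this direction, 3 of the 12 were lowest in sham nuclei, Bcl6, Cat and Sod2. The median over the 12 was 0.35 for sham over untreated, and over all genes tested it was 0.00. Of these 12, 10 reached 50 CPM in the untreated or denervated library. The rest, Klf15 among them, were tested through the sham library. They could only be highest there, and they count in the 8 and in the median. Srebf1 and Gsk3b, which act downstream of AKT, were also more than 2-fold lower in sham nuclei than in both others, whereas Sh2b1, Inppl1 and Tsc2 were higher. Acaca, Acly, Fasn, Me1, Klf15, Srebf1, Gsk3b, Sh2b1, Inppl1, Tsc2, Bcl6, Cat and Sod2 are named after their values were seen. The levels are of RNA, and neither insulin nor phosphorylation was measured in these data.

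**Figure D2:**
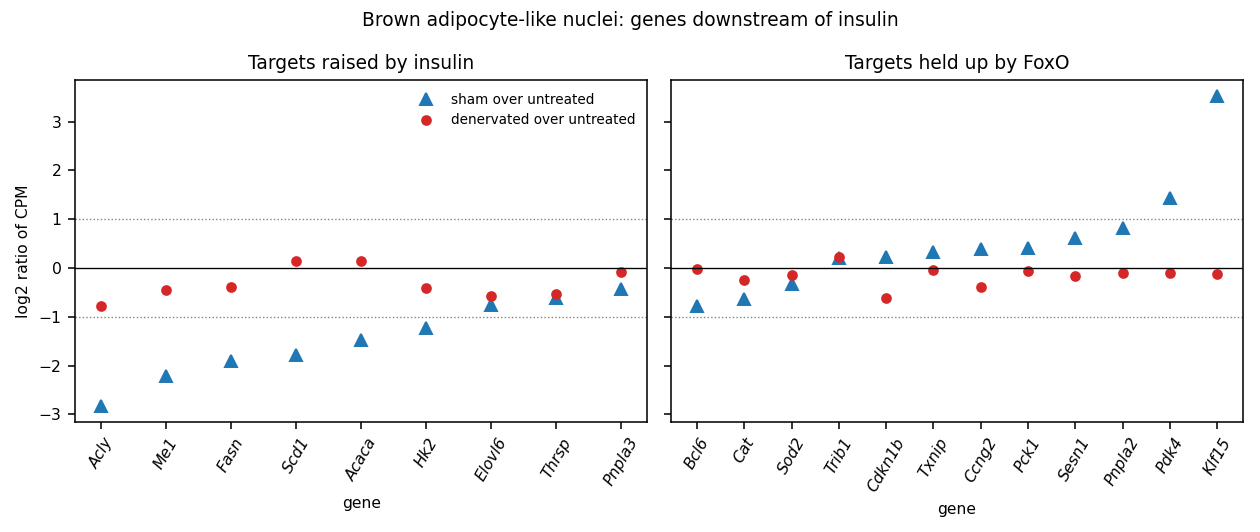
Log2 ratio of CPM over the untreated library in BA-like nuclei for genes raised by insulin (left) and genes held up by FoxO (right), for the sham (triangles) and denervated (circles) libraries. All 9 genes on the left lie below 0 in the sham library, and Klf15 and Pdk4 on the right lie above 2-fold.

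Most members were higher in BA-like than in EC-like nuclei, while against pericyte-like and WA-like nuclei the order differed by gene. In the untreated library 5 of 7 tested members were more than 2-fold higher in BA-like than in EC-like nuclei and 1, Igf1r, was lower, against 26.3% and 24.5% of 5460 genes. In the sham library 6 of 8 were higher, Irs2 being the further one, and 1 lower, against 28.7% and 22.9%, and in the denervated library 5 of 7 were higher and 1 lower, against 17.9% and 21.1%. Untreated Grb14 was at 292 CPM in BA-like and 24.1 CPM in EC-like nuclei, a log2 ratio of 3.598 (3.29 to 3.93). Insr was at 362 and 67.2 CPM, a log2 ratio of 2.43 (2.24 to 2.62). Akt2 was at 543 and 130 CPM and Pik3r1 at 1000.2 and 219 CPM. Foxo1 was the member besides Igf1r that was higher in EC-like nuclei, at 227 (untreated), 146 (sham) and 186 CPM (denervated), by less than 2-fold in every library. Brown markers in EC-like nuclei summed to 9.75% of their BA-like level in the untreated, 6.86% in the sham and 29.2% in the denervated library, and none of the 10 was at 0. The EC-like level of Grb14 was 8.26%, 9.03% and 23.8% of the BA-like level, near those marker shares, while that of Insr was 18.6%, 23.6% and 41.7%. The part of carried-over BA RNA in the EC-like levels was not tested.

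**Figure D3:**
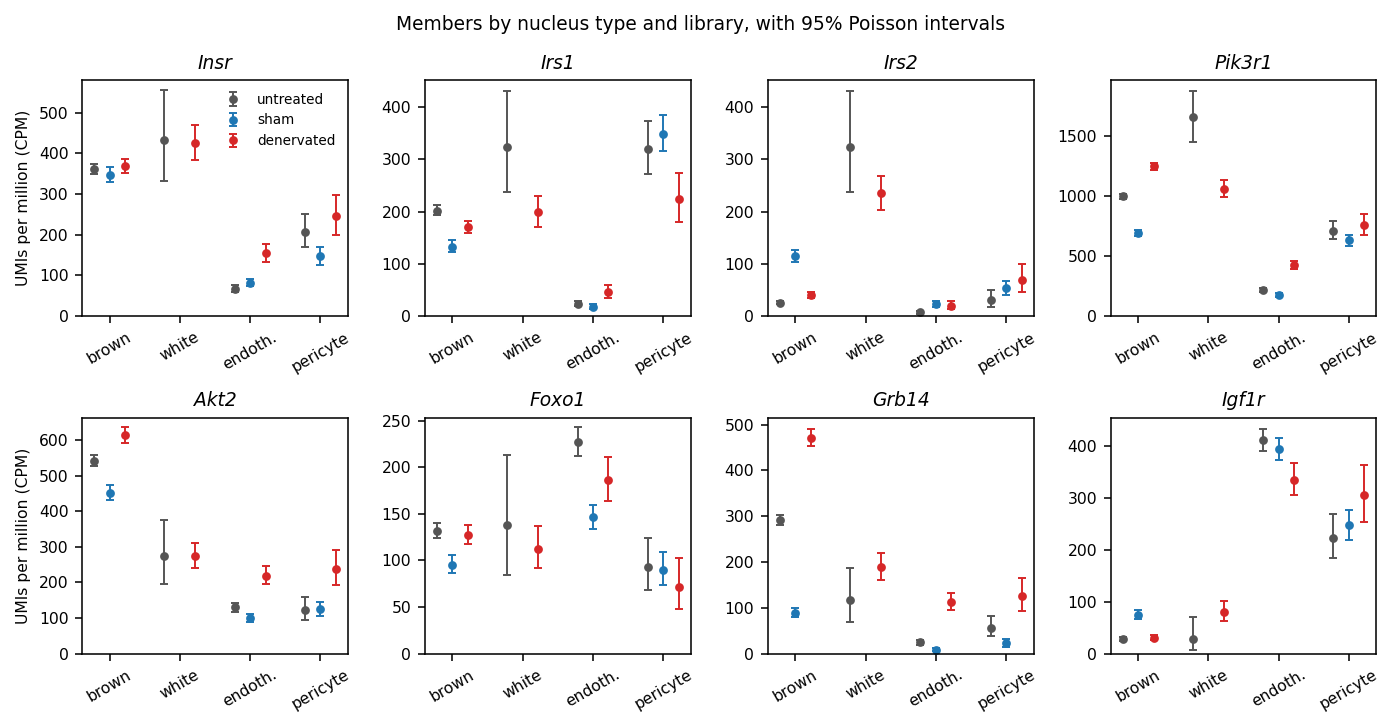
CPM of each member in BA-like (brown), WA-like (white), EC-like and pericyte-like nuclei of each library, with 95% Poisson intervals. Igf1r and Foxo1 are highest in EC-like nuclei of the untreated library, Irs2 is highest in WA-like nuclei of both libraries that have them, and Grb14 and Akt2 are highest in BA-like nuclei.

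Pericyte-like nuclei differed from ECs in Irs1. They held it at 320 CPM (untreated), 349 CPM (sham) and 224 CPM (denervated), above BA-like nuclei in each library by log2 ratios of 0.66 (0.42 to 0.90), 1.39 (1.20 to 1.58) and 0.39 (0.06 to 0.70). EC-like nuclei held it at 23.3, 18.2 and 46.4 CPM. Pericyte-like Insr was at 207, 147 and 246 CPM, between the EC-like and BA-like levels with no overlap of intervals. In the untreated library 1 of 7 members was 2-fold higher in pericyte-like than in BA-like nuclei and 2 were lower, against 24.1% and 21.5% of 5602 genes. The counts were 2 higher and 4 lower of 8 in the sham library, against 24.8% and 22.9%, and 1 higher and 2 lower of 8 in the denervated one, against 21.4% and 18.1%. Igf1r was higher and Akt2 and Grb14 were lower in each. Between libraries, 2 of 8 members were 2-fold higher in denervated than in untreated pericyte-like nuclei, against 7.25% of genes higher and 5.46% lower. They were Grb14 with a log2 ratio of 1.15 (0.46 to 1.87) and Irs2 with 1.19 (0.23 to 2.20). Irs2, from 28 denervated and 15 untreated UMIs, reached 50 CPM only in the denervated library and could be counted only as higher. Grb14 alone passed 2-fold for denervated over sham, at 2.49 (1.78 to 3.23) where 9.56% of genes were higher and 8.34% lower, and for sham over untreated, at -1.34 (-2.17 to -0.52) where 4.26% were higher and 3.18% lower. Brown markers in pericyte-like nuclei summed to 13.9%, 8.27% and 24.3% of the BA-like level. Pericyte-like Grb14 was at 19.3%, 24.9% and 26.6% of its BA-like level. The part of carried-over BA RNA in the pericyte-like levels was not tested.

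In EC-like nuclei of the denervated library several members were higher than in the other libraries. Insr was at 67.2 CPM (untreated), 82.2 CPM (sham) and 154 CPM (denervated), Grb14 at 24.1, 8.07 and 112 CPM, and Pik3r1 at 219, 177 and 425 CPM. For denervated over untreated, 2 of 6 tested members (Insr and Grb14) were 2-fold higher, against 7.65% of 4772 genes higher and 1.26% lower, and for denervated over sham 3 of 6 (Akt2, Grb14 and Pik3r1), against 12.3% of 4856 genes higher and 4.18% lower. Grb14 reached 50 CPM only in the denervated library and could be counted only as higher in both. None of 5 tested was 2-fold apart between sham and untreated, where 1.97% of genes were higher and 2.38% lower. The median log2 ratio of all genes was 0.16 for denervated over sham. The members that passed 2-fold were higher in 1 of the 2 EC-like clusters of the denervated library than in the other. The cluster of 1341 nuclei held brown-only markers at 49.3% of the BA-like level, with Insr at 246 CPM, Grb14 at 203 CPM and Pik3r1 at 608 CPM. The other cluster, of 1247 nuclei, held those markers at 10.2%, with Insr at 67.0 CPM, Grb14 at 26.2 CPM and Pik3r1 at 251 CPM. With the second cluster alone, none of 5 members at 50 CPM or more was 2-fold different in either comparison, where 4.74% of 4619 genes were higher and 1.6% lower than untreated and 12.8% of 4779 were higher and 6.53% lower than sham. Over sham the log2 ratio of Pik3r1 was still 0.50 (0.25 to 0.75), that of Foxo1 0.61 (0.34 to 0.87) and that of Grb14, below 50 CPM, 1.70 (0.76 to 2.61), from 18 and 28 UMIs. For denervated over untreated the log2 ratio was then -0.00 (-0.49 to 0.46) for Insr, 0.12 (-0.70 to 0.87) for Grb14 and 0.20 (-0.05 to 0.44) for Pik3r1. Irs2 was the member whose denervated over untreated interval in EC-like nuclei still lay above 0, at 1.64 (0.61 to 2.62), from 15 and 25 UMIs.

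Among the 10 EC-like clusters of the 3 libraries, a sham cluster of 157 nuclei led by Plvap, Vwf and Selp, genes of venous endothelium, had Insr at 236 CPM and Foxo1 at 376 CPM, at a brown-only marker level of 3.68%. The largest sham EC-like cluster, of 4220 nuclei, had Insr at 83.0 CPM and Foxo1 at 139.7 CPM. Igf1r was at 359 CPM in the former and 421 CPM in the latter.

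**Figure D4:**
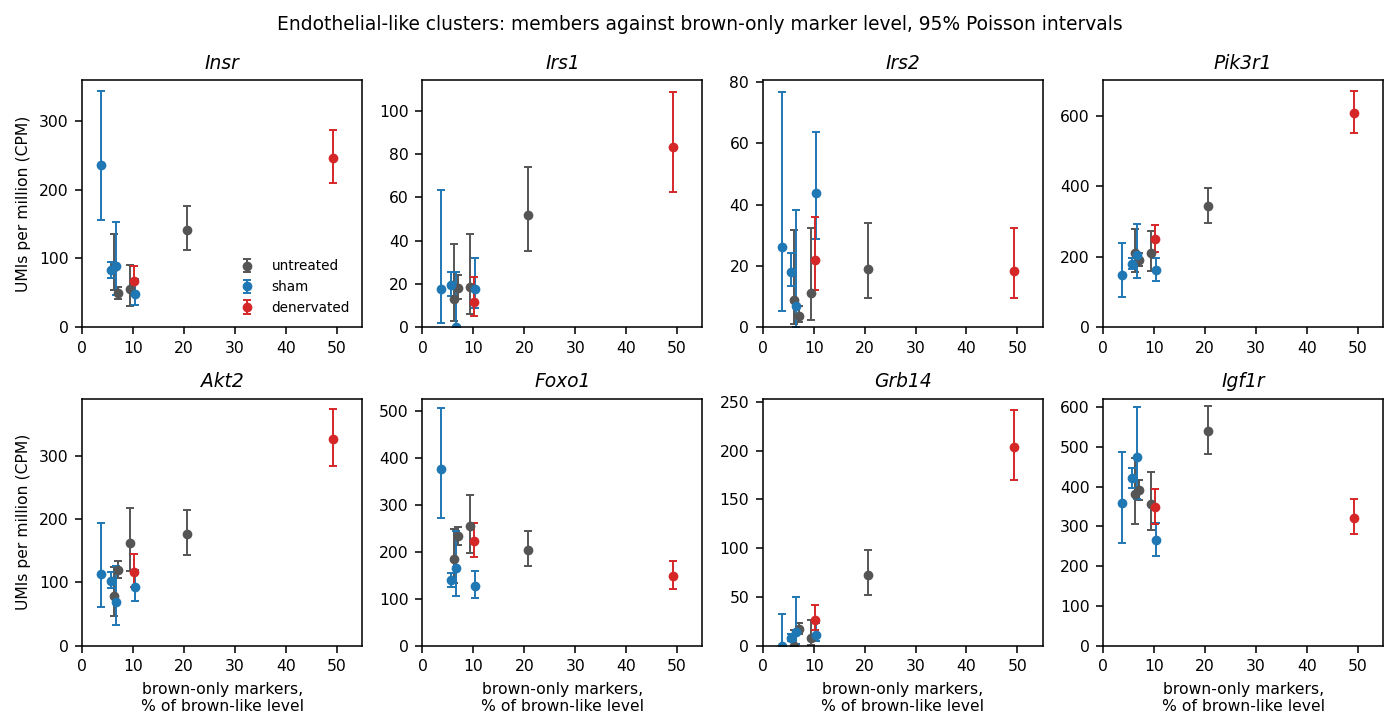
CPM of each member in each EC-like cluster, with 95% Poisson intervals, against the level of brown-only markers as a percent of BA-like nuclei. The denervated cluster at 49.3% has the highest Grb14, Pik3r1, Akt2 and Irs1, and the denervated cluster at 10.2% lies among the clusters of the other libraries for most members.

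Of the members, Irs2 differed most between WA-like and BA-like nuclei of the same library. It was at 324 CPM in WA-like and 25.9 CPM in BA-like nuclei of the untreated library, a log2 ratio of 3.65 (3.16 to 4.11), and at 235 and 40.9 CPM in the denervated one, a ratio of 2.52 (2.24 to 2.81). Grb14 went the other way, at 117 against 292 CPM (untreated) and 189 against 471 CPM (denervated), with log2 ratios of -1.32 (-2.10 to -0.64) and -1.32 (-1.55 to -1.09). Akt2 was at 275 CPM in WA-like nuclei of both libraries, with log2 ratios to BA-like nuclei of -0.98 (-1.47 to -0.53) and -1.16 (-1.35 to -0.97). Insr was at 434 and 426 CPM in WA-like nuclei. The 10 brown markers, some of which all adipocytes express, summed in WA-like nuclei to 42.0% (untreated) and 32.1% (denervated) of the BA-like level, and their part in these ratios was not tested. In counts, 1 of 7 members was 2-fold higher and 1 lower in the untreated library, against 13.6% and 21.7% of 4854 genes, and 2 of 8 were higher (Irs2 and Igf1r) and 2 lower (Grb14 and Akt2) in the denervated one, against 12.5% and 17.6% of 4737 genes. Irs2 in both libraries and Igf1r in the denervated one reached 50 CPM only in WA-like nuclei and could be counted only as higher. The unnamed adipocyte cluster of the sham library held Irs2 at 660.3 CPM against 115 CPM in sham BA-like nuclei, a log2 ratio of 2.52 (2.37 to 2.68), and Irs1 was 2-fold higher there too, at 279 against 133 CPM. Higher there by 2-fold were 7.25% of 4690 genes and lower 6.52%, with no member among the lower ones.

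**Figure D5:**
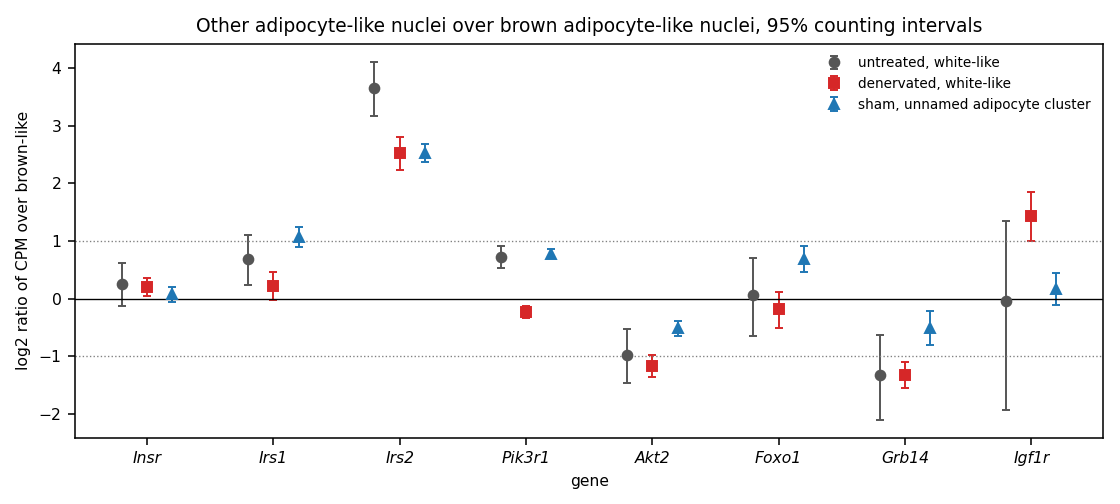
Log2 ratio of CPM over BA-like nuclei of the same library for WA-like nuclei (untreated, denervated) and for the unnamed adipocyte cluster of the sham library, with 95% counting intervals and dotted lines at 2-fold. Irs2 lies above 2.5 for all of them and Grb14 below 0.

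From untreated to denervated WA-like nuclei, Pik3r1 went from 1659 to 1065 CPM, a log2 ratio of -0.64 (-0.85 to -0.43), and Irs1 from 324 to 199 CPM, a ratio of -0.70 (-1.17 to -0.21). The intervals of Insr, Akt2, Foxo1, Grb14 and Irs2 held 0, with 102 untreated nuclei. For Igf1r, with 4 untreated UMIs, the log2 ratio was 1.55 (0.14 to 3.47), the 1 of 8 members past 2-fold and tested only through the denervated library, where 9.83% of genes were higher and 7.95% lower.

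Kit-detected BA-like nuclei were compared with Kit-undetected ones because Kit is the receptor the study followed in BAs. In the denervated library 795 nuclei with a Kit UMI were matched on total UMIs to 795 of 4127 without. The median log2 ratio of the 8 members was 0.00 (-0.19 to 0.23, medians of the members' bounds). None of the members reached 2-fold, where 0.285% of 4565 genes with at least 50 CPM did. The interval of 1 member, Igf1r, lay above 0 and that of 1, Insr, below 0. Of the 4565 genes, 4.05% had an interval above 0 and 9% had one that excluded 0 in either direction. Igf1r and Irs2 were below 50 CPM in both groups and are not among those genes. Insr was at 337 CPM with and 429 CPM without a Kit UMI, a log2 ratio of -0.35 (-0.56 to -0.14), and Igf1r was at 36.2 CPM (36 UMIs) and 18.1 CPM (18 UMIs), a log2 ratio of 0.999 (0.15 to 1.903). The Igf1r interval held 0 with at least 500 detected genes per nucleus, 0.91 (-0.02 to 1.88), without matching, 0.35 (-0.24 to 0.90), and with at least 2 Kit UMIs. The Insr interval held 0 without matching, -0.17 (-0.34 to 0.01), and with at least 2 Kit UMIs, -0.41 (-0.89 to 0.06). In the untreated library, with 1754 pairs, the same ratios were 0.07 (-0.05 to 0.18) for Insr and -0.15 (-0.57 to 0.27) for Igf1r.

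Across nucleus types the members fell into different company. Over 19 combinations of type and library, which share libraries and differ in depth, the gene whose log2 level followed Insr most closely of 9823 was Esr1 (Pearson r of 0.92), then Pcca and Tmem135. It was Bmpr1a for Irs1 (0.90), then Rasl12 and Ctdspl, and Ctdspl for Pik3r1 (0.89), then Sntb1 and Ric8b. Irs2 was closest to Nnmt (0.82), then Cpeb1 and Cp. Akt2 was closest to Cxadr (0.91), then Akap1 and Gm32569, and Grb14 to Efna5 (0.92), then Srebf1. Igf1r was closest to 1700025G04Rik (0.93), then Wipf1, and Foxo1 to Epb41l4a (0.75), then Orc5 and Phactr1. Between members, r was highest for Akt2 and Grb14 (0.89) and lowest for Igf1r and Insr (-0.78).
All members are protein-coding genes in the GENCODE vM21 annotation of GRCm38. Insr (chr8:3122061-3279617), Irs1 (chr1:82233101-82291416), Irs2 (chr8:10984681-11008458) and Foxo1 (chr3:52268336-52353221) overlap genes on the opposite strand, so that their counts are uncertain to the extent that reads of those genes were counted to them. Foxo1 and Pik3r1 also overlap a gene on their own strand, Gm38034 and Gm36638, with the same limit. The positions of the others are chr13:101680563-101768217 (Pik3r1), chr7:27591552-27640826 (Akt2), chr2:64912476-65024987 (Grb14) and chr7:67952827-68233668 (Igf1r). Introns as well as exons give reads in nuclei, and whether intronic reads were counted is not given in the sources used here.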

How the data were processed

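The authors deposited 3 tables of UMI counts per nucleus and gene (molecules after recursive substitution error correction), made from BD Rhapsody whole-transcriptome libraries. Per the file headers, the untreated and denervated tables came from the BD WTA Rhapsody Analysis Pipeline 1.9 in its nuclei version on GRCm38 with GENCODE M19, while no header came with the table of the sham library. The study's later steps (Seurat 4.0.6, removal of ambient RNA) are not in these counts. Here nuclei needed 200 detected genes or more and a mitochondrial share of no more than 50%, and doublets were removed by exclusive markers (at least 3 UMIs of a second class). Each library was clustered alone (2000 variable genes without members and pathway genes, 30 components, 20 neighbours, Louvain resolution 0.5, python-igraph 0.11.9, scipy 1.17.1) and clusters were named by markers. A WA-like cluster had to hold less than 1/3 of the brown-only marker level of the BA-like nuclei, a limit set after the clusters were seen. Levels are UMIs per 1000000 (CPM), summed over nuclei, with exact Poisson intervals, and ratios carry exact conditional binomial intervals. With 1 library per condition, genes were counted as different when the log2 ratio was at least 1 in size at 50 CPM or more in either group. Shares were thinned to 500 UMIs per nucleus. Named were all members, the pathway gene of each role with the highest CPM in any library's BA-like nuclei, any pathway gene past 2-fold in denervated BA-like nuclei against both others and, per member, the 3 genes most alike by Pearson r of log2(CPM + 10). Some genes that this rule names are not reported here. The members and lists were chosen with earlier results of these data known. On simulated counts for denervated over untreated BA-like nuclei, 100 of 100 genes changed by 1.5 on the log2 scale were found among 4313 tested. These counts held counting error only. They had no other variation between libraries, no naming of nuclei and no carried-over RNA, so they do not address those limits.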

Additional observations from a re-analysis of the deposited data

Results flagged for a closer look

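In the main clustering Irs1 had log2 ratios of opposite sign in different nucleus types of the same libraries. Its log2 ratio for denervated over untreated was -0.24 in BA-like and 0.998 in EC-like nuclei, and for denervated over sham it was 0.36 in BA-like and -0.64 in pericyte-like nuclei. Pik3r1 had a log2 ratio for denervated over untreated of 0.32 in BA-like and -0.64 in WA-like nuclei. The counting intervals of each pair lie on opposite sides of 0, but with 1 library per condition the difference between nucleus types was not tested. The EC-like nuclei of the denervated library included the cluster with brown-only markers at 49.3% of the BA-like level, and without that cluster the EC-like ratio of Irs1 was -0.996 (-2.25 to 0.05), from 8 denervated UMIs. EC-like Irs1 was below 50 CPM in both libraries, at 46.4 (denervated) and 23.3 CPM (untreated). Over the alternatives on the CPM scale the BA-like Irs1 ratio of denervated over sham ranged from -0.10 to 0.37, so its sign depended on which nuclei were counted as BA-like.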

How the results depend on the processing

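All comparisons in BA-like nuclei between libraries, of BA-like over EC-like and of WA-like over BA-like nuclei stayed within 1.5 times their count of members past 2-fold under every alternative that gave a value, except when counts were scaled to 10000 in each nucleus and averaged as log2 with 1 added. On that scale, which shrinks ratios of rarely detected genes, no member passed in either comparison with the sham library in BA-like nuclei, in the WA-like over BA-like comparisons or in EC-like nuclei (0 each), and 3, 2 and 3 passed for BA-like over EC-like nuclei (untreated, sham, denervated). EC-like comparisons depended on which nuclei were included. For denervated over untreated the count of 2 became 5 with at least 500 detected genes, 4 with at most 10% mitochondrial UMIs, 1 with doublets kept, 1 with all 3 libraries clustered together, and 0 at resolution 1 and in the denervated cluster with fewer brown markers alone. For denervated over sham the count of 3 became 5, and 0 in the last 2 settings. Of 864 single member ratios, 640 stayed within the counting interval of the value reported, 223 left it, and 1 of those past 2-fold changed sign, Insr for denervated over untreated in EC-like nuclei, which was -0.00439 in that cluster alone. Subtraction of ambient RNA gave no value for EC-like nuclei of the sham and denervated libraries, where the estimated ambient share was 91.3% and 104%, and WA-like over BA-like nuclei of the untreated library had no value with doublets kept or with members used in the clustering, because no cluster was then WA-like. The alternatives on the single BA cluster, the unnamed sham cluster, the EC-like cluster with fewer brown markers and the WA-like comparisons were chosen after seeing the data. No paired analysis was possible because each condition has 1 library.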

Other observations

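At a clustering resolution of 1, 520 nuclei of the sham library formed a WA-like cluster below the limit on brown-only markers. In it Irs2 was at 1086 CPM (731 UMIs) against 203 CPM in the 3834 BA-like nuclei of that clustering, a log2 ratio of 2.42 (2.28 to 2.56). Grb14 was at 54.9 against 83.9 CPM, a ratio of -0.61 (-1.14 to -0.12), and Akt2 at 275 against 422 CPM, a ratio of -0.62 (-0.84 to -0.40). Insr was at 365 against 353 CPM. The BA-like Irs2 level of the sham library was thus 203 CPM at resolution 1 and 115 CPM at resolution 0.5.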
